A study of Mus musculus with 3 samples.

Results

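A set of 9 genes of blood coagulation and of the removal of clots was followed through monocytes of mice with experimental autoimmune encephalomyelitis (EAE), a mouse model of multiple sclerosis. They were F3, F5, F7, F10, F13a1, Plau, Plaur, Serpinb2 and Thbd, taken by name as 9 of the 22238 genes quantified in all 3 RNA-Seq libraries of the study. The set, like the further list of genes below, was chosen with earlier results of these data known. The libraries came from monocytes of the bone marrow (BM-Mono), monocytes of the spinal cord (SC-Mono), and antigen-presenting cells of the spinal cord that derive from monocytes (APCs). All mice were wild type on a C57BL/6J background, 10 to 12 weeks old, and immunized under the skin with a peptide of myelin oligodendrocyte glycoprotein in complete Freund's adjuvant. They then received 250 ng of pertussis toxin at 2 h and again at 24 h. Cells were taken on days 14 to 15, so every library carried the same immunization, and mice without EAE were not analysed here.

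BM-Mono were sorted as Ly6Chi cells that carried CD45 and CD11b but neither Ly6G nor CD11c, pooled from 13 mice of 2 experiments. SC-Mono were Ly6Chi and APCs Ly6Clow/- within cells positive for CD45, CD11b and CD64 and negative for Ly6G, and both were pooled from 18 mice of 3 experiments. Spinal cords were digested with collagenase D and DNase I and spun on a Percoll gradient. Bone marrow was flushed from the bones and enriched with a monocyte isolation kit. Tissue, isolation and gate therefore differed together between bone marrow and spinal cord, and their parts in any difference cannot be told apart. Each population was 1 pooled library with no replicate, so no difference below has a replicate check, and every interval covers the error of counting reads only. One label of the APC library names the bone marrow as its source, whereas its title and tissue label name the spinal cord. Of the monocyte markers, 8 of 8 were over 3 TPM, a share of transcripts corrected for length, in each library. That result does not tell the populations apart. The markers of antigen presentation followed the populations as titled. Their 5 genes summed to 181 TPM in BM-Mono, 8649 in SC-Mono and 21502 in APCs. The libraries held 33280643, 27283795 and 28209589 estimated reads, in that order.

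Clotting begins when tissue factor (the product of F3), a membrane protein, binds factor VII (F7) and the pair activates factor X (F10). Activated factor X, held to its cofactor factor V (F5), turns prothrombin into thrombin. Thrombin makes fibrin, which factor XIII (A subunit, F13a1) cross-links. Thrombomodulin (Thbd) turns thrombin toward the activation of protein C, a brake on clotting. Clots are dissolved by plasmin, which urokinase (Plau) activates from plasminogen at its receptor on the cell surface (Plaur), and the serpin PAI-2 (Serpinb2) inhibits urokinase. Most circulating factors come from the liver, but monocytes and macrophages are known sources of tissue factor, factor XIII A, urokinase and its receptor. In the inflamed spinal cord, fibrin is deposited where the barrier of the blood vessels opens.

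The genes lie on 7 chromosomes of GRCm38. F7 (chr8:13026034-13035809) and F10 (chr8:13037308-13056676) are on the plus strand with 1498 bases between them. F3 lies at chr3:121723537-121735048 (+), Plau at chr14:20836660-20843385 (+) and Plaur at chr7:24462484-24475968 (+). F5 lies at chr1:164151838-164220277 (+), Thbd at chr2:148404466-148408188 (-), F13a1 at chr13:36867178-37050244 (-) and Serpinb2 at chr1:107511423-107535478 (+). Serpinb2 shares exon bases with Serpinb10 on the same strand. F5 overlaps the lincRNA Gm16548 on the opposite strand and the processed pseudogene Gm16588. F13a1 overlaps the antisense genes Gm49144 and Gm30489, and use of strand in the quantification is not given in the sources used here.

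The 250 bases before the annotated start were read for the members that were called in the first comparison below, since those moved apart between bone marrow and spinal cord. RefSeq windows on GRCm38.p6 were matched by symbol for 7 of the 9 genes, Plau and Thbd being unmatched. Capitals mark matches, on either strand, to the letters of 4 motifs: AP-1 (TGANTCA), NF-kB (a 10-letter consensus), Egr1 (GCGNGGGCG) and Sp1 (GGGCGG). Sequences are written 5′ to 3′ on the gene's strand, and the last base is next to the start. F3 is chr3:121723287-121723536 (+), Plaur chr7:24462233-24462482 (+), F7 chr8:13025784-13026033 (+), F10 chr8:13037058-13037307 (+), F5 chr1:164151585-164151834 (+) and F13a1 chr13:37050245-37050494 (-).
F3: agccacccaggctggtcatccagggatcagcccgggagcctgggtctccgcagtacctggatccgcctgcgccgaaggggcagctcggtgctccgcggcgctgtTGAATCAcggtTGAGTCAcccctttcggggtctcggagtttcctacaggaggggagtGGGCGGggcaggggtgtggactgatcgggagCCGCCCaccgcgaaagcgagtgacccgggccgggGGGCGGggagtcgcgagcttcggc
Plaur: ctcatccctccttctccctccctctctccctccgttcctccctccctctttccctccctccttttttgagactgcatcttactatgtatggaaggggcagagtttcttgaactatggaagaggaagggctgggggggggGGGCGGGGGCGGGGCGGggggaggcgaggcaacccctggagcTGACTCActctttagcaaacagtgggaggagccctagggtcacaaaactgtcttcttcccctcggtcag
F7: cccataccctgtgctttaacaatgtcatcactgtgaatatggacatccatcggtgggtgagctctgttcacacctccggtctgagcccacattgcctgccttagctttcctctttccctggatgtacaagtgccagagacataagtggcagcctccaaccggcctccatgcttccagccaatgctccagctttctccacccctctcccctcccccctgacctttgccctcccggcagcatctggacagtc
F10: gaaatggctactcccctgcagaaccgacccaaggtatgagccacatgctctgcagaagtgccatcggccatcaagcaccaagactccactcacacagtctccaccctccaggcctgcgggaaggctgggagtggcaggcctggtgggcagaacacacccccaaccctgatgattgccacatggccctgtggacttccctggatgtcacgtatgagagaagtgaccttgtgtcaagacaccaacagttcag
F5: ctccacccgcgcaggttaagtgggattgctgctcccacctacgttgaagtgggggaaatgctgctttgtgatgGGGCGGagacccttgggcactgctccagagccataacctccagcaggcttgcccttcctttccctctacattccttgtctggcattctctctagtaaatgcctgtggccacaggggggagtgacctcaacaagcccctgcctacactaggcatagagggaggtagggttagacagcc
F13a1: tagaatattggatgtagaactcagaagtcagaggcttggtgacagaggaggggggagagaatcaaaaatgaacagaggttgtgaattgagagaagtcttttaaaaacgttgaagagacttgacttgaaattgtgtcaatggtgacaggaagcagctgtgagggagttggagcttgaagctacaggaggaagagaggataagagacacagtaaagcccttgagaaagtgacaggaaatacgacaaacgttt

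The F3 window held 2 AP-1 matches (TGAATCA and TGAGTCA) and 3 Sp1 matches. The Plaur window held 1 AP-1 match (TGACTCA) and a run in which 3 Sp1 matches and 1 Egr1 match overlap. The F5 window held 1 Sp1 match, and those of F7, F10 and F13a1 held none of the 4 motifs. Serpinb2, whose window is not shown, held the AP-1 match TGAATCA. Of all 32851 windows of this length, 6.75% held the AP-1 letters, 4.11% those of NF-kB, 4.7% those of Egr1 and 32.7% those of Sp1. No member held the NF-kB letters. These matches are letters in a window and not measured sites. In base composition, G and C made up 70% of the F3 window and 42.8% of the F13a1 window shown, against a median of 52.4% over all windows. F13a1 has a second RefSeq start, whose window (not shown) held none of the 4 motifs and 54.4% G and C.

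Levels are given as TPM, a share of transcripts corrected for length, after rescaling to the same sum over the 22238 common genes. The change between libraries is given as the log2 ratio of reads scaled by size factors, with a 98% counting interval. A gene was called when that interval lay beyond a 2-fold change and the level was over 3 TPM in at least 1 of the 2 libraries, and "rose" and "fell" below refer to called genes. From bone marrow to SC-Mono, 5 of the 9 genes were called higher (F3, F7, F10, Plau and Plaur) and 2 lower (F5 and F13a1). Over all 10072 active genes, those over 3 TPM in either library, 13.8% were called higher and 10.7% lower. Because the 9 genes were chosen with earlier results known, such shares are given for scale only. The median log2 ratio of the 9 genes was 1.27, beside -0.15 over all active genes. From SC-Mono to APCs, 0 of the 9 were called higher and 1 lower (F5), where 1.93% and 1.70% of 9734 active genes were called. The median there was -0.61, beside -0.04 over all active genes. On reads divided by effective length, the counts were 5 higher and 3 lower at the first step (14.0% and 11.2% of all active genes) and 0 higher and 2 lower at the second (2.38% and 3.29%).

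**Figure D1:**
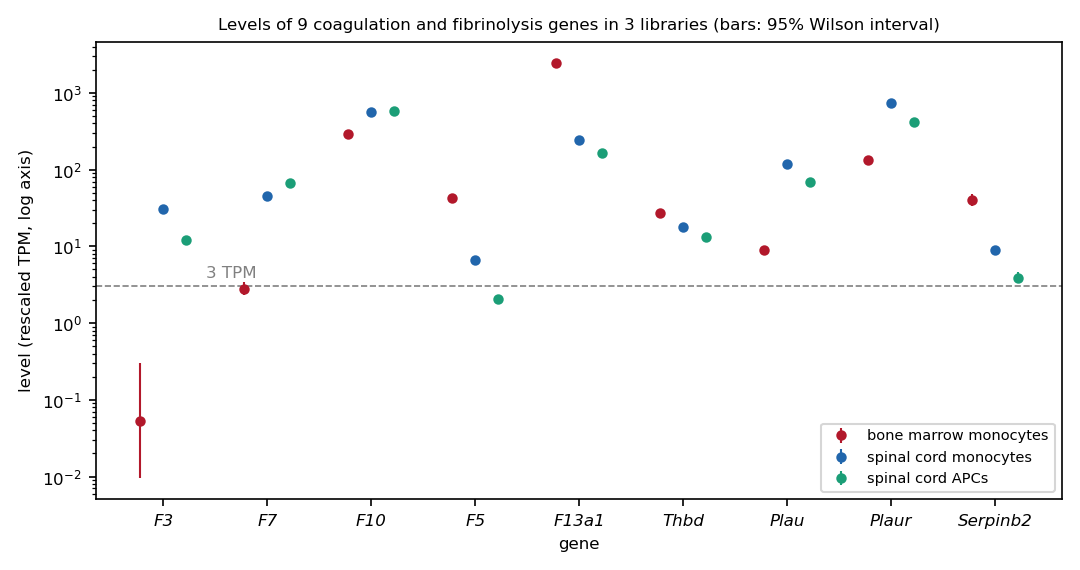
Level of each gene in rescaled TPM on a log axis, with 1 point per library and bars for the 95% Wilson interval of its read count (most are smaller than the point), and a dashed line at 3 TPM. F3 stood at 0.0537 TPM in BM-Mono and 31.0 in SC-Mono, whereas F13a1 stood at 2424 and 244 TPM.

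The genes that start clotting were higher in the spinal cord. F3, the gene of tissue factor, had 1 read in BM-Mono, 828 in SC-Mono and 413 in APCs. Its level was 0.0537 TPM (95% interval 0.00948 to 0.304), 31.0 TPM (29.0 to 33.2) and 12.2 TPM (11.1 to 13.4), in that order. The bone marrow level was under that of 3 reads (0.161 TPM), so the gene was barely detected there and was well above detection in both spinal cord populations. F3 rose 689.5-fold between the monocyte libraries, with a counting interval from 173.8 to 7798, a log2 ratio of 9.43 (7.44 to 12.93). Among the 10072 active genes, 30 had a larger ratio. From SC-Mono to APCs the log2 ratio was -1.16 (-1.36 to -0.96), which was not called on reads, and -1.26 (-1.46 to -1.06) per effective length, which was. The effective length of F3 was 1378 bases in SC-Mono and 1622 in APCs, and the gene has coding transcripts of 1130 and 1872 bases.

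F7, the gene of the protease that tissue factor binds, had 96 reads in BM-Mono, 1390 in SC-Mono and 2248 in APCs. These were levels of 2.81 TPM (2.30 to 3.43), 45.3 TPM (43.0 to 47.8) and 67.0 TPM (64.3 to 69.8). F7 rose 20.1-fold between the monocyte libraries (15.9 to 25.9), a log2 ratio of 4.33 (3.99 to 4.69). Its ratio of APCs to SC-Mono was 0.54 on the log2 scale (0.42 to 0.65), within a 2-fold change. Unlike F3, F7 was highest in APCs, so the level ratio of F7 to F3 was 1.46 (1.32 to 1.62) in SC-Mono and 5.48 (4.85 to 6.22) in APCs.

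F10, the gene of factor X, was the most abundant of these 3 in every library, with 10459, 18082 and 18564 reads. Its level was 292.6 TPM (287.1 to 298.3) in BM-Mono, 563.5 TPM (555.4 to 571.8) in SC-Mono and 578.8 TPM (570.5 to 587.2) in APCs. F10 rose 2.41-fold between the monocyte libraries (2.35 to 2.48, log2 ratio 1.27). This call was lost when the factors came from all genes of the monocyte libraries (log2 ratio 1.03) and when libraries were assumed to vary with a coefficient of 0.2. Between SC-Mono and APCs the scales differed in sign: the log2 ratio was -0.12 on reads (-0.15 to -0.08) and 0.12 per effective length (0.09 to 0.16). F7 and F10 are neighbors, yet their ratio changed: F10 exceeded F7 by 103.5-fold in BM-Mono (82.4 to 132.6), 12.4-fold in SC-Mono (11.7 to 13.3) and 8.64-fold in APCs (8.20 to 9.10).

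F5, the gene of the cofactor of factor X, went the other way. It had 6546 reads in BM-Mono, 926 in SC-Mono and 304 in APCs. Its level was 42.7 TPM (41.7 to 43.8), 6.68 TPM (6.26 to 7.12) and 2.03 TPM (1.82 to 2.27), so it was under 3 TPM in APCs. F5 fell 5.06-fold from bone marrow to SC-Mono (log2 ratio -2.34, -2.46 to -2.22) and 3.39-fold from SC-Mono to APCs (log2 ratio -1.76, -1.99 to -1.54). It was the 1 member called at both steps, and 67 of the 9734 active genes had a lower ratio at the second. When a coefficient of variation of 0.2 between libraries was assumed, the interval of the second step reached from -2.73 to -0.80 and F5 was no longer called there.

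F13a1, the gene of the factor XIII A subunit, had by far the highest level of the 9 genes in BM-Mono. Its 188312 reads were 0.586% of all reads on the common genes there, and it had 16556 reads in SC-Mono and 12770 in APCs. The level was 2424 TPM (2413 to 2435), 244.4 TPM (240.7 to 248.2) and 165.5 TPM (162.6 to 168.4), which put it at rank 55, 621 and 763 among the common genes. F13a1 fell 8.14-fold at the first step (log2 ratio -3.03, -3.05 to -3.00). At the second step its log2 ratio was -0.53 (-0.57 to -0.49), within a 2-fold change. In both spinal cord populations it still had the third highest level of the 9 genes.

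Platelets and their precursors also express F13a1 and F5, and granulocyte progenitors share the bone marrow, so markers of both were measured. The 9 markers of megakaryocytes and platelets summed to 30.4 TPM in BM-Mono, 1.39 in SC-Mono and 1.14 in APCs. Of these, 1 (Ppbp) was over 3 TPM in BM-Mono and 0 in the other libraries, and Gp1bb and Gp1ba had 0 reads in both spinal cord populations. The 5 markers of granulocyte progenitors summed to 651 TPM (5 over 3 TPM), 64.9 TPM (2 over) and 23.2 TPM (1 over), moving in the same direction as F13a1 and F5. Their part in the fall of either gene was not tested. In bulk RNA, fewer cells of a type and less RNA of a gene in each cell cannot be told apart.

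Thbd, the gene of thrombomodulin, had the smallest change of the 9 genes at the first step. It had 1995, 1208 and 955 reads, or 27.0 TPM (25.8 to 28.2) in BM-Mono, 18.1 TPM (17.1 to 19.1) in SC-Mono and 13.2 TPM (12.4 to 14.1) in APCs. The log2 ratios were -0.24 (-0.36 to -0.12) and -0.50 (-0.64 to -0.35), and neither was called. Relative to F3, the level of Thbd was 299.2-fold in BM-Mono (75.6 to 3382, on 1 read of F3), 0.583-fold in SC-Mono (0.525 to 0.648) and 1.08-fold in APCs (0.942 to 1.24). Only in SC-Mono was tissue factor transcript above that of thrombomodulin, since the interval of the ratio in APCs held 1.

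**Figure D2:**
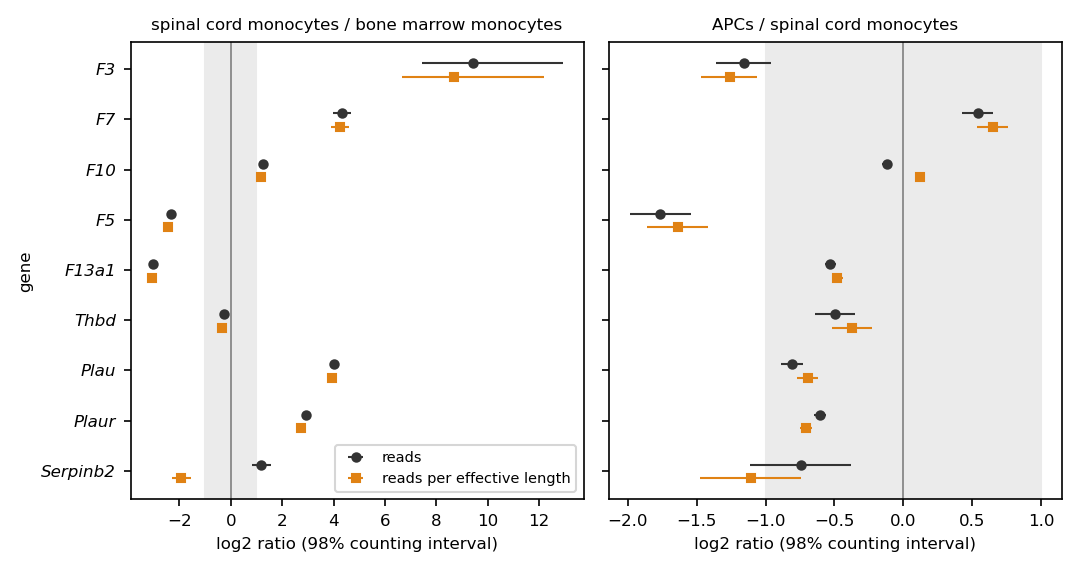
Log2 ratio of each gene between spinal cord and BM-Mono (left) and between APCs and SC-Mono (right), on scaled reads (circles) and on reads per effective length (squares), with 98% counting intervals and a shaded band for changes under 2-fold; the panels have different x axes. F3 had the largest ratio at left (9.43 on reads), Serpinb2 changed sign between the scales (1.19 and -1.92), and at right F5 lay clear of the band on both scales.

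Of the genes of plasmin formation, urokinase and its receptor rose together. Plau had 403 reads in BM-Mono, 4712 in SC-Mono and 3001 in APCs, or 9.05 TPM (8.21 to 9.98), 117.9 TPM (114.6 to 121.3) and 68.8 TPM (66.4 to 71.3). Plau rose 16.3-fold at the first step (14.5 to 18.4), and the log2 ratio was 4.03 there and -0.81 (-0.89 to -0.73) at the second. Plaur had 2712, 14650 and 10725 reads, or 131.7 TPM (126.8 to 136.7), 732.1 TPM (720.3 to 744.0) and 423.5 TPM (415.6 to 431.6). Plaur rose 7.54-fold at the first step (7.19 to 7.92), and the log2 ratio was 2.92 there and -0.61 (-0.65 to -0.56) at the second. Both genes were highest in SC-Mono, intermediate in APCs and lowest in BM-Mono. Per effective length, the receptor transcript stood 14.5-fold above urokinase in BM-Mono (12.9 to 16.5), 6.21-fold in SC-Mono (5.97 to 6.46) and 6.15-fold in APCs (5.87 to 6.46). On that scale the ratio differed between bone marrow and spinal cord beyond counting error but not between the spinal cord populations. On reads, the second-step intervals of Plau and Plaur above do not overlap, so the latter result depends on the scale. The effective length of Plaur was 1033 bases in SC-Mono and 1215 in APCs.

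Serpinb2 gave opposite answers on reads and per length. It had 128 reads in BM-Mono, 209 in SC-Mono and 139 in APCs, few on every side. As levels these were 40.0 TPM (33.6 to 47.4), 8.96 TPM (7.82 to 10.3) and 3.93 TPM (3.33 to 4.64). The log2 ratio of spinal cord to BM-Mono was 1.19 on reads (0.81 to 1.57, not called) and -1.92 per effective length (-2.29 to -1.54). The effective length assigned to the gene was 150 bases in BM-Mono, 1204 in SC-Mono and 1698 in APCs. Its 2 coding transcripts are 1970 and 1996 bases long and share 0 bases with exons of Serpinb10. Its shortest transcript, annotated for nonsense-mediated decay, is 347 bases long, of which 254 (73.2%) lie in Serpinb10 exons. Serpinb10 itself had 3525, 206 and 20 reads and fell at both steps (log2 ratios -3.61 and -3.48). How many of the bone marrow reads of Serpinb2 came from Serpinb10 transcripts was not tested, and no direction is given here for Serpinb2 at the first step. From SC-Mono to APCs its log2 ratio was -0.74 (-1.11 to -0.38) on reads and -1.10 (-1.47 to -0.74) per effective length, not called on either.

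Summed over the 9 genes, the level was 2970 TPM in BM-Mono, 1768 in SC-Mono and 1335 in APCs, and its makeup differed. F13a1 made up 81.6% of the sum in BM-Mono, 13.8% in SC-Mono and 12.4% in APCs. Plaur made up 4.43%, 41.4% and 31.7%, and F10 9.85%, 31.9% and 43.4%. Without F13a1 the sum was 545.9, 1524 and 1169 TPM, which turned the order of bone marrow and spinal cord around.

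**Figure D3:**
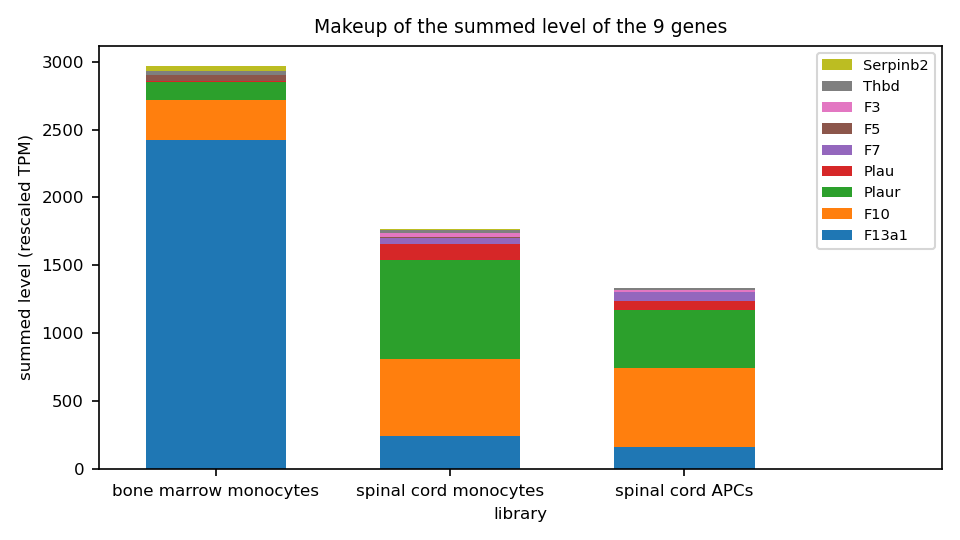
Summed level of the 9 genes in rescaled TPM, with 1 stacked bar per library and 1 color per gene. The bone marrow bar (2970 TPM) is mostly F13a1 (81.6%), while Plaur and F10 form most of the spinal cord bars (1768 and 1335 TPM).

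Between BM-Mono and APCs, a comparison that shares its libraries with the other 2, the same 5 members were called higher and the same 2 lower. Over 10190 active genes, 14.0% were called higher and 11.8% lower on reads. On reads per effective length 5 members were called higher and 3 lower (Serpinb2 added, log2 ratio -3.02), beside 14.3% and 12.7% of active genes. The level order over the 3 libraries fell into 3 patterns. F3, Plau and Plaur were highest in SC-Mono and lowest in BM-Mono. F5, F13a1 and Thbd were highest in BM-Mono and lowest in APCs, as was Serpinb2 in TPM but not in reads. F7 was highest in APCs and lowest in BM-Mono, and F10 was lowest in BM-Mono, the order of its spinal cord levels depending on the scale.

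**Figure D4:**
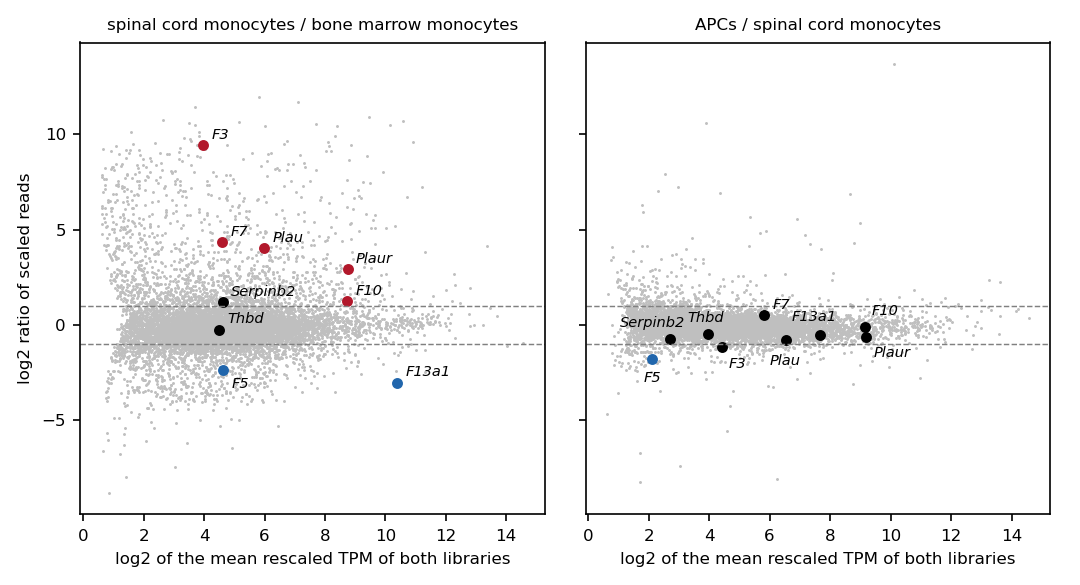
Log2 ratio of scaled reads against the log2 mean level of both libraries for all active genes (grey, 10072 at left and 9734 at right) and the 9 members (red called higher, blue called lower, black not called), with dashed lines at a 2-fold change. At left 7 members are called and the spread of grey points is wide; at right most genes lie between the lines and F5 (-1.76) is the called member.

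A list of 49 further genes of the same pathways was measured: other factors, inhibitors, receptors, cofactors of their synthesis and proteins of plasmin formation. Of these 49 genes, 21 were over 3 TPM in at least 1 library, 17 had reads but stayed at or under 3 TPM, and 11 had 0 reads in all 3 libraries. The 11 were F11, F12, F13b, Fga, Fgb, Fgg, Hrg, Kng1, Plg, Proc and Serpina5. They include the 3 fibrinogen chains, plasminogen and protein C, which the liver makes and on which the products of the 9 genes act. A count of 0 allowed levels up to 0.217 TPM in BM-Mono, 0.245 in SC-Mono and 0.199 in APCs, at a floor of 3 reads per library. From bone marrow to SC-Mono, 20 of the 49 were active, with 6 called higher (Vwf, Procr, Gas6, Serpine2, Plgrkt and Thbs1) and 0 lower and a median log2 ratio of 0.34, beside 13.8%, 10.7% and -0.15 over all active genes. From SC-Mono to APCs, 21 were active, with 0 called higher and 1 lower (Thbs1) and a median of 0.03, beside 1.93%, 1.70% and -0.04 over all active genes.

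Among the inhibitors of plasmin formation, Serpine2, protease nexin 1, rose with a log2 ratio of 2.15 (1.73 to 2.60). Its level was 1.67 TPM in BM-Mono, 5.36 in SC-Mono and 7.32 in APCs. The study counts Serpine2 among markers of microglia and could not exclude a small number of microglia among the APCs. Their part in the level of Serpine2 was not tested. Tissue plasminogen activator, Plat, had 1, 110 and 161 reads and 3.39 TPM at most, so urokinase was the more abundant activator transcript by 49.2-fold (39.6 to 62.1) in SC-Mono and 20.2-fold (16.8 to 24.5) in APCs.

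Several genes of plasminogen binding and of the vessel wall moved as well. Plgrkt, the gene of a plasminogen receptor, rose from 39.4 to 140.4 TPM at the first step (log2 ratio 2.17, 2.01 to 2.34) and was at 108.7 TPM in APCs. The calls of Serpine2 and Plgrkt were lost when a coefficient of variation of 0.4 between libraries was assumed. Other cell surface proteins that bind plasminogen were abundant in BM-Mono already, with Anxa2 at 1345, 671 and 471 TPM and S100a10 at 962, 598 and 419 TPM, neither called at either step. Between BM-Mono and APCs directly, Anxa2 was called lower in APCs (log2 ratio -1.22, -1.26 to -1.18) and S100a10 was not called (-0.88, -0.95 to -0.82). Thbs1, the gene of thrombospondin 1, rose from 110 to 1491 TPM (log2 ratio 4.23, 4.20 to 4.26) and fell to 627 TPM in APCs (-1.27, -1.29 to -1.26). Vwf, the gene of von Willebrand factor, rose from 0.95 to 17.7 TPM (log2 ratio 4.24, 3.97 to 4.52) and was at 12.9 TPM in APCs.

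Around thrombomodulin and tissue factor, the protein C receptor gene Procr had 4 reads in BM-Mono, 861 in SC-Mono and 1914 in APCs. Its level was 0.14 TPM (0.0544 to 0.360), 39.1 TPM (36.5 to 41.7) and 74.5 TPM (71.2 to 77.9), and it rose at the first step (log2 ratio 8.01, 6.69 to 9.88). The second log2 ratio was 1.0 (0.86 to 1.13), at but not clearly beyond a 2-fold change. Procr therefore stood above Thbd by 2.16-fold in SC-Mono (1.95 to 2.40) and 5.64-fold in APCs (5.15 to 6.19). Pros1, the gene of protein S, the cofactor of activated protein C, had 2999, 997 and 1507 reads. Its log2 ratio at the first step was -1.11 (-1.23 to -0.98), not called on reads, and -1.34 (-1.46 to -1.22) per effective length, where it was called lower. Its relative Gas6 rose from 0.082 to 5.13 TPM (log2 ratio 6.08, 4.75 to 7.96, on 4 bone marrow reads) and was at 12.4 TPM in APCs, where the log2 ratio of 1.24 (0.98 to 1.5) was called per effective length only (1.35, 1.10 to 1.62). Tfpi, the inhibitor of tissue factor and factor VII, was at 4.35, 4.09 and 8.71 TPM and was called at neither step. The ratio of F3 to Tfpi was 7.56 (6.15 to 9.39) in SC-Mono and 1.40 (1.17 to 1.68) in APCs.

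**Figure D5:**
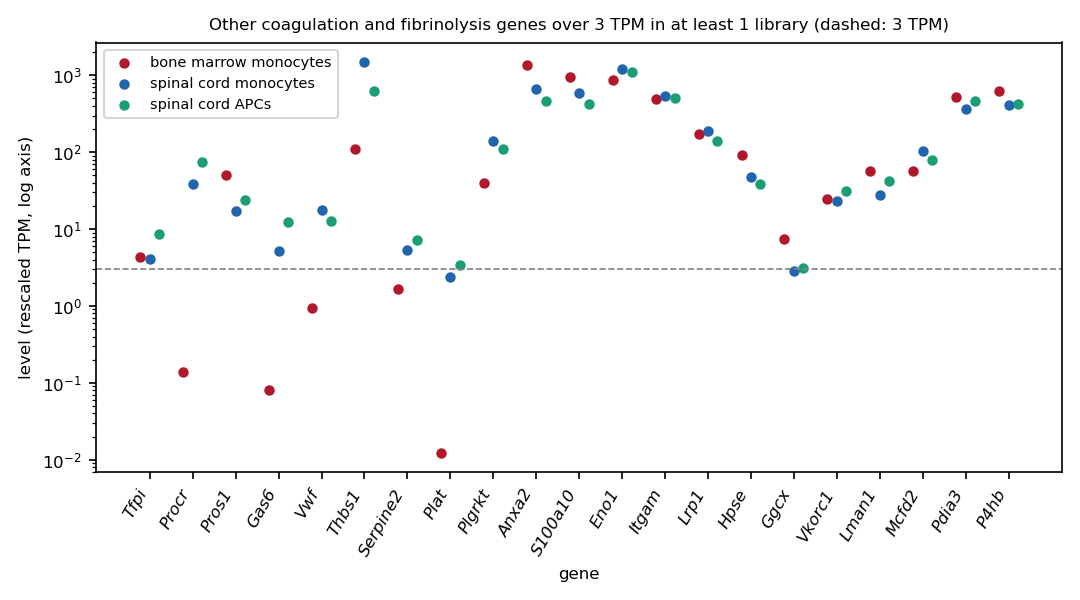
Level in rescaled TPM on a log axis of the 21 other coagulation and fibrinolysis genes over 3 TPM in at least 1 library, with 1 point per library and a dashed line at 3 TPM. Procr (0.14, 39.1 and 74.5 TPM) and Gas6 (0.082, 5.13 and 12.4 TPM) lay far lower in bone marrow than in spinal cord, as did Plat (0.0124, 2.38 and 3.39 TPM). The points of each gene at right (Ggcx, Vkorc1, Lman1, Mcfd2, Pdia3 and P4hb) lie closer together than theirs. Of the genes at right, Ggcx (7.34, 2.86 and 3.08 TPM) is the most spread.

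Genes that liver cells use to make clotting factors had reads in all 3 libraries and were not called. Ggcx, the enzyme that carboxylates factors VII and X, was at 7.34, 2.86 and 3.08 TPM, so under 3 TPM in SC-Mono. Its log2 ratio at the first step was -0.95 (-1.30 to -0.60). Vkorc1, which recycles the vitamin K that this enzyme needs, was at 24.7, 23.3 and 31.7 TPM. Lman1 and Mcfd2, which together carry factor V out of the endoplasmic reticulum, had log2 ratios of -0.84 (-0.94 to -0.74) and 1.06 (0.96 to 1.17) at the first step.

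Endothelial cells and astrocytes of the spinal cord are known to express some of these genes, among them Vwf, Procr, Thbd and, in astrocytes, F3. The gates required CD45 and CD11b, with CD64 in the spinal cord, and how far they removed both cell types was not tested. Markers of both were therefore measured in the 3 libraries. The 7 endothelial markers summed to 17.5 TPM in BM-Mono (2 over 3 TPM, Cldn5 and Tek at 0 reads), 78.9 TPM in SC-Mono (4 over) and 48.4 TPM in APCs (3 over). The 7 astrocyte markers summed to 6.73 TPM (0 over, Aqp4 and Slc1a2 at 0 reads), 41.0 TPM (4 over) and 63.3 TPM (4 over). The 8 microglia markers summed to 225.8 TPM (2 over 3 TPM, Sall1 and Slc2a5 at 0 reads), 489.9 TPM (7 over) and 957.5 TPM (8 over). Summed endothelial markers had the order of F3, Plau, Plaur and Vwf over the 3 libraries. Summed astrocyte and microglia markers had the order of F7, Procr, Gas6 and Serpine2. Among astrocyte markers, Aldoc (2.56, 22.4 and 43.7 TPM) was the largest in each library. Gfap (2.31, 5.57 and 3.70 TPM) and Gja1 (1.16, 4.56 and 1.53 TPM) had the order of F3. The other astrocyte markers had that of the sum. Flt1 (7.06, 43.1 and 26.8 TPM) was the largest endothelial marker in both spinal cord libraries. Pecam1 (9.66, 13.8 and 8.52 TPM) was lowest in APCs. The part of such cells in these results was not tested. Fibroblast markers (6 genes) summed to 4.74 TPM at most with 0 over 3 TPM in any library.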

How the data were processed

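Libraries were made with the KAPA mRNA HyperPrep kit from sorted, pooled cells. The authors estimated expression with Salmon 0.14.1 on GENCODE vM22 (mm10) and deposited, per gene, estimated counts of reads, which are not normalized, and TPM, which they normalized for effective length and library size. The APC values list 22242 genes and those of both monocyte libraries 54432, so another transcript set was used, which the methods do not describe. The 22238 common genes held 84.9% and 85.3% of TPM in bone marrow (BM-Mono) and spinal cord monocytes (SC-Mono) and nearly all in APCs, with 32115707, 26116588 and 28209327 reads.

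Estimated counts were rounded to whole reads. Size factors by the median of ratios (1.21, 0.864 and 0.963) were taken over the common genes of the 3 libraries. The log2 ratio was the median of gamma posteriors of reads plus 1, with percentiles 1 and 99 as its interval, which follows the study's definition by GFold. That tool was not used here. The study's log2 threshold of 2 for active expression was taken to apply to log2(TPM + 1), that is 3 TPM. TPM was given a 95% Wilson interval and a floor of 3 reads. PCR reads are not independent molecules, so intervals and floors cover counting error only. With 1 library per group, populations could not be tested and p-values are absent. GENCODE M21 (GRCm38) gave names and coordinates, and 99% of the common identifiers (22022) were identical, including all 9 members. Scripts ran in Python 3.11.15 with pandas 2.3.3, numpy 2.4.6, matplotlib 3.10.9 and scipy 1.17.1, and edgeR 4.0.16 in R 4.3.3 gave TMM factors only. The calculation was tested on simulated data.

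The members and lists were chosen with earlier results of these data known. Named were the 9 members, genes of the wider list that were called or over 3 TPM in a library, defining markers, and the 2 active genes nearest to each member by both log2 ratios. Serpinb10 was added after its overlap with Serpinb2 was seen. Alternatives changed the scaling, TPM filter, reads added, interval, assumed spread and gene set. Size factors over genes active in all 3 libraries and a ratio of TPM were added after seeing the data. A further gene of the wider list is not reported here.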

Additional observations from a re-analysis of the deposited data

How the results depend on the processing

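With 1 library per group, no replicate could be left out, and depth bounds only the counting error. No paired analysis was possible because each group has 1 library. Of the members' log2 ratios recomputed under the alternatives, 100 kept direction and call at the first step (SC-Mono against BM-Mono). At the second (APCs against SC-Mono) 93 kept their side of the threshold, among them F10, never called there, whose sign turned from -0.12 to 0.12 per effective length and 0.04 on the ratio of TPM. Serpinb2 reversed at the first step to -1.92 on reads divided by effective length and -2.04 on a ratio of TPM with a pseudocount of 1, where its effective length differs between libraries (150 and 1204 bases). F10 lost its first call with assumed coefficients of variation of 0.2 and 0.4, with all genes of the monocyte libraries (1.03) and on the ratio of TPM (0.94). The number of members called lower at the first step was 1 instead of 2 with a coefficient of variation of 0.4, which lost F5. At the second step it was 2 instead of 1 per effective length and by the point estimate (F3 added), 3 on the ratio of TPM (F3 and Serpinb2 added) and 0 with coefficients of 0.2 and 0.4. In the wider list, genes called lower at the first step numbered 1 (Pros1) instead of 0 on total reads, per effective length, by the point estimate and with all monocyte genes, and 3 on the ratio of TPM, and genes called higher numbered 11 instead of 6 with no TPM filter, 7 by the point estimate and with factors from active genes (Mcfd2 added), and 4 with a coefficient of variation of 0.4 (Serpine2 and Plgrkt lost). At the second step, 1 gene was called higher instead of 0 (Gas6) on total reads, per effective length, by the point estimate, with factors from active genes and on the ratio of TPM, and 2 with no TPM filter. Genes called lower there numbered 2 instead of 1 with no TPM filter and 0 with coefficients of 0.2 and 0.4. Except where named, the cause of these differences was not tested.

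Over all active genes, 1386 were called higher and 1073 lower at the first step. These counts were 1239 and 1394 on total reads, 1371 and 1587 with all monocyte genes, 1315 and 1890 on the ratio of TPM, 2623 and 1178 with no TPM filter, 910 and 445 with a coefficient of variation of 0.2, and 622 and 218 with 0.4. Factors over the 8477 genes active in all 3 libraries raised every log2 ratio of the first step by 0.15 and every one of the second by 0.04, giving 1511 higher and 862 lower at the first, and no member changed its call. At the second step the main counts were 188 and 165, with 232 and 320 per effective length, 326 and 302 by the point estimate, 274 and 528 on the ratio of TPM, 385 and 292 with no TPM filter, 83 and 35 with a coefficient of 0.2, and 41 and 14 with 0.4. The deposited TPM of a member, not rescaled, is 84.9% of the rescaled value in BM-Mono, 85.3% in SC-Mono and nearly the same in APCs.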

Other observations

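The genes whose pattern over the 3 libraries was most like each member were found by the distance between pairs of log2 ratios, one for each step, over 10307 active genes. The distances describe 3 libraries only. F3 had few neighbors, with 5 genes within a distance of 0.5, the nearest being Slco1a4 (9.53 and -1.0) and Sdc4, the gene of syndecan 4 (9.48 and -0.79). F5 had 15, led by Lbp, the gene of lipopolysaccharide binding protein (-2.18 and -1.72), and Crispld2 (-2.53 and -1.92). The nearest to F13a1 were Shcbp1 (-3.07 and -0.51) and Ckap2 (-3.01 and -0.46), both known from dividing cells, with 37 genes within 0.5. Those nearest to Plau were the interferon-induced GTPase genes Tgtp2 (4.06 and -0.76) and Gbp9 (3.96 and -0.91), with 44 within 0.5. F7 lay nearest to Trim47 (4.38 and 0.53) and Plxna1 (4.35 and 0.67), with 39 within 0.5, and Plaur nearest to Gm12216 (2.89 and -0.60) and Cdc42ep2 (2.94 and -0.64), with 88. Patterns of the other members were common. F10 had 443 genes within 0.5 (nearest Usp36 and 4930402H24Rik), Serpinb2 on reads had 311 (Trim30d and Map1lc3a) and Thbd had 1958 (Jtb and Shkbp1).

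Markers of further cell types were measured in all 3 libraries. The 7 neutrophil markers summed to 998.1 TPM in BM-Mono, 186.7 in SC-Mono and 411.5 in APCs, but did not move together. Mmp8 (707, 119 and 137 TPM), Ngp, Camp, Ltf and Ly6g were lower in SC-Mono than in BM-Mono. Cxcr2 (2.56, 9.10 and 6.75 TPM) and Retnlg (1.77, 16.7 and 57.9 TPM) were lowest in BM-Mono. Ly6g was under 3 TPM in every library. Those of CNS-associated macrophages (6 genes) summed to 15.7, 36.8 and 51.1 TPM, of conventional dendritic cells (6 genes) to 40.8, 21.3 and 28.3 TPM, and of oligodendrocytes (4 genes) to 73.1, 48.1 and 45.8 TPM. T cell markers (4 genes) summed to 0.347, 42.2 and 61.3 TPM, B cell markers (3 genes) to 0.159, 0.970 and 0.504 TPM, and markers of peritoneal macrophages or mast cells (4 genes) to 0.197, 0.167 and 0.272 TPM. Their part in the members' levels was not tested.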
